A study of Mus musculus with 18 samples.

Results

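The NCoR and HDAC3 corepressor complex was followed here as 8 genes in mouse liver after myocardial infarction (MI): Ncor1, Hdac3, Tbl1x, Tbl1xr1, Gps2, Hdac1, Hdac2 and Sirt1. They were found by exact match of their symbols, and all 8 had values in both tables, of 50600 genes at 1 day and 17127 genes at 12 h. All 8 also passed the filter on low counts in both tables (14266 and 12548 genes tested). RNA was sequenced from the livers of 18 mice, 3 in each of 6 groups. At 1 day the groups were HMRKO + MI, HMRKO + sham, LC + MI and LC + sham, and at 12 h they were C57 mice after MI and after a sham operation.

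Hepatocyte MR knockout (HMRKO) mice carried mineralocorticoid receptor (MR, Nr3c2) alleles flanked by loxP sites together with Cre recombinase driven by the albumin promoter, which is active in hepatocytes and leaves MR in the other cells of the liver. Littermate control (LC) mice carried the same floxed alleles without Cre, and the labels call them wild type. For MI, the left anterior descending artery of the heart was tied off permanently. Labels give all the mice as C57BL/6 at postnatal week 12. Which 1 day livers came from MI mice, and when the livers were taken, was read from the design text of the series, since the labels are silent on both. The time of day of collection is not given in the sources used here. Nothing states how many cages or litters the mice came from, so p values measure the spread between these livers only.

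NCoR1 is a large scaffold protein that nuclear receptors and other transcription factors recruit to switch genes off. HDAC3, a histone deacetylase, gains its activity when it binds NCoR1, and the WD-repeat proteins TBL1X and TBLR1 (Tbl1xr1) together with GPS2 complete the core of the complex. TBL1X and TBLR1 are close relatives that tether the complex to histones and also help to exchange corepressors for coactivators. HDAC1 and HDAC2 are the deacetylases of the SIN3, NuRD and CoREST complexes and also associate with NCoR, and SIRT1 is a deacetylase that consumes NAD. In liver, NCoR and HDAC3 are known for the daily repression of lipid genes through the REV-ERB receptors. The study asked how MR in hepatocytes affects the heart after MI, as part of signalling between heart and liver. In primary hepatocytes it reported, by co-immunoprecipitation, that MR, NCOR1 and HDAC3 interact, and it detected no interaction of MR with HDAC1. Silencing NCOR1 or HDAC3 reversed the fall in Fgf21, the gene of a liver hormone, under MR overexpression. The paper concluded that MR represses Fgf21 together with NCOR1 and HDAC3. The genes followed here encode the repressor machinery available to nuclear receptors.

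Tbl1xr1 and Hdac2 were the members that were higher in HMRKO livers after MI at 1 day. The 250 bases before their annotated start sites are shown, as given by RefSeq for GRCm38.p6. The promoter of Tbl1xr1 lies at chr3:22076402-22076651 and that of Hdac2 at chr10:36974294-36974543, both on the plus strand. These windows were chosen for display because neither overlaps an annotated exon. Capitals mark the GC box, GGGCGG or its reverse complement CCGCCC.
Tbl1xr1: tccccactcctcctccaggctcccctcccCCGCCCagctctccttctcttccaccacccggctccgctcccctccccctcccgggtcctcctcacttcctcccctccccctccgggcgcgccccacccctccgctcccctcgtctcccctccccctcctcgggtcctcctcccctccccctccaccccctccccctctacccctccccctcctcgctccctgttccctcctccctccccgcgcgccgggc
Hdac2: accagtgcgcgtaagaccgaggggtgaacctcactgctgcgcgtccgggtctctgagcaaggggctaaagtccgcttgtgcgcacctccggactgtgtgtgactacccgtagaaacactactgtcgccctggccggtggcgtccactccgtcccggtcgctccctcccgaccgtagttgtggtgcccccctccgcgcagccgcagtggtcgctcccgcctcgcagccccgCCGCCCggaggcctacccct
The Tbl1xr1 window is 76% G and C and consists largely of runs of C and T, and the Hdac2 window is 68.8% G and C. Each holds 1 GC box, first base 221 bases before the start in Tbl1xr1 and 20 bases before it in Hdac2. A GC box is present in 32.7% of the 32851 mouse promoters of the same length. Both strands of both windows were also searched for AGAACA (a half-site of the element that MR and the glucocorticoid receptor bind), AGGTCA (a nuclear receptor half-site), TTCNNNGAA (the STAT element), CACGTG (an E-box), TGACGTCA (a CRE) and CCAAT, and none of these letters was found in them. AGAACA is present in 16.1% of all promoters, AGGTCA in 14% and TTCNNNGAA in 7.02%. Promoters matched for 6 of the 8 genes, and those of Hdac1 and Hdac3 were not used here. The same search of the matched promoters not shown found AGAACA 185 and 12 bases before the start in the first Ncor1 entry, but not in the second. It found CACGTG, present in 6.02% of all promoters, 115 and 43 bases before the start of Sirt1. CCAAT, present in 33.8%, was 221 and 59 bases before that of Gps2. AGGTCA, TTCNNNGAA and TGACGTCA were in none of these promoters. The GC box was not particular to the windows shown. It was also found 172 bases before the start of Tbl1x, 176 and 11 bases before it in the second Ncor1 entry, and at 6 places in Sirt1.

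Total counts ranged over livers at 1 day between 19098704 and 28945526. The LC + MI liver of replicate 1 stood apart in its mitochondrially encoded transcripts, which took 18.94% of its counts, and the HMRKO + sham liver of replicate 2 followed with 15.61%, against 7.525% to 12.34% in the other 10 livers. Levels at 1 day are CPM, counts scaled to a common library size with TMM factors and not corrected for gene length, so they are compared between livers and not between genes. Called genes are those with an adjusted p below 0.05 in the quasi-likelihood test of edgeR, with Benjamini-Hochberg adjustment across every gene tested. In RNA from whole liver, fewer cells of a type and less RNA per cell cannot be told apart. Hepatocyte markers summed to 52900 to 77700 CPM in every liver at 1 day, and the markers of the other liver cell types were all far below them. The deleted gene, Nr3c2, was at 2.93, 3.76 and 2.54 CPM in HMRKO + sham livers, against 5.6, 6.70 and 4.71 CPM in LC + sham livers (log2 fold change -0.88, SE 0.25, adjusted p = 0.471, edgeR), without overlap but short of the threshold. After MI it was at 0.895, 1.10 and 0.913 CPM in HMRKO livers, against 3.56, 2.13 and 1.90 CPM in LC livers (log2 fold change -1.36, SE 0.29, adjusted p = 0.00505). A count over the whole gene cannot separate transcripts that lack the deleted exon from intact ones.

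After MI at 1 day, Tbl1x fell in both genotypes, and Tbl1xr1 and Hdac2 rose and Hdac3 fell in HMRKO livers. Ncor1, Gps2, Hdac1 and Sirt1 passed the test in no comparison at 1 day. In HMRKO + MI against HMRKO + sham, 2 of 8 genes rose (Tbl1xr1 and Hdac2), where 22.0% of all genes tested rose, and 2 of 8 fell (Hdac3 and Tbl1x), where 21.7% of all genes fell. In HMRKO + MI against LC + MI, 1 of 8 was higher (Tbl1xr1), where 14.6% of all genes were higher, and none was lower, where 16.2% were. In LC + MI against LC + sham, none rose, where 2.68% of all genes rose, and 1 of 8 fell (Tbl1x), where 2.33% fell. In both directions together 43.7%, 30.8% and 5.0% of all genes were called in these 3 comparisons, against 4, 1 and 1 of the 8. The count of members called was therefore near the background in the first comparison and below it in the second. With a log2 fold change over 1 also required, 1 of 8 (Tbl1xr1), none and none remained, where 20.4%, 12.4% and 2.49% of all genes did. The groups did not overlap for 4, 2 and 2 of the 8, where 55.8%, 48.8% and 24.8% of all genes did not. Median log2 fold changes of the 8 genes were -0.04, -0.03 and 0.1 in these comparisons, against 0.01, -0.01 and 0.01 over all genes tested. HMRKO + MI and LC + MI livers each enter more than 1 comparison, so the comparisons are not independent.

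**Figure D1:**
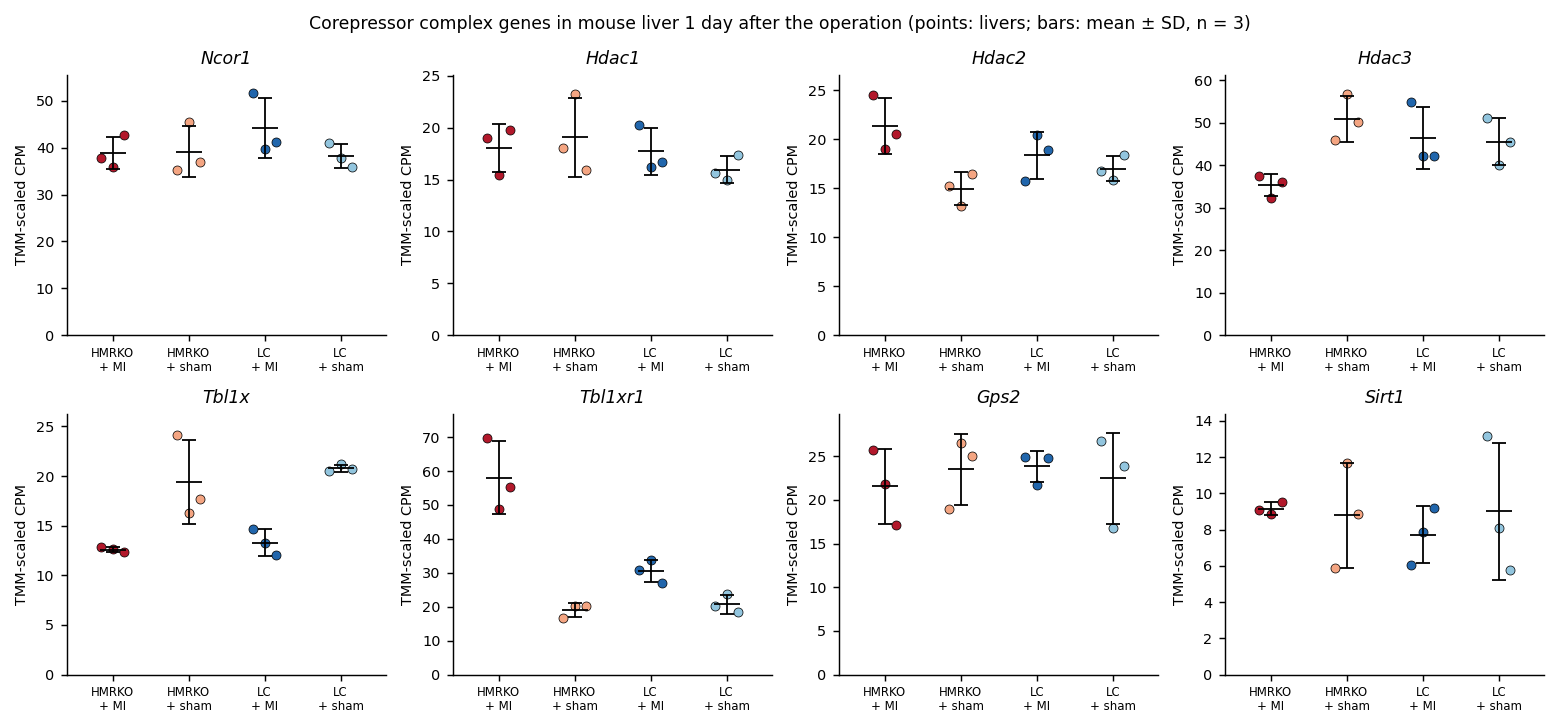
TMM-scaled CPM of the 8 genes in each liver 1 day after the operation, with 1 panel per gene, 1 point per liver and the mean ± SD of 3 livers for each group. Tbl1xr1 stands highest in HMRKO + MI livers (48.8 to 69.8 CPM), and Tbl1x is lower in both MI groups than in both sham groups.

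Tbl1xr1 encodes TBLR1. It was at 69.8, 48.8 and 55.4 CPM in HMRKO + MI livers, against 16.8, 20.2 and 20.1 CPM in HMRKO + sham livers. LC + MI livers had 30.7, 33.7 and 27.1 CPM and LC + sham livers 20.2, 23.7 and 18.3 CPM. No MI liver overlapped the sham livers of its genotype, and the lowest HMRKO + MI liver was above the highest LC + MI liver. With MI, Tbl1xr1 rose 3.04-fold in HMRKO livers (log2 fold change 1.61, SE 0.16, adjusted p = 3e-05, edgeR), the only one of the 8 past a log2 fold change of 1 in any of the 4 comparisons of groups at 1 day. In LC livers the ratio was 1.47-fold (log2 fold change 0.56, SE 0.16) and did not pass edgeR's test (adjusted p = 0.066), whereas DESeq2's test gave an adjusted p of 0.0286. HMRKO + MI livers had 1.90-fold more than LC + MI livers (log2 fold change 0.93, SE 0.16, adjusted p = 0.00212, edgeR).

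The response of Tbl1xr1 to MI also differed between the genotypes. The effect of MI in HMRKO livers exceeded that in LC livers by 1.05 on the log2 scale (SE 0.23, adjusted p = 0.0137, edgeR interaction term), and Tbl1xr1 was the 1 of 8 genes called. Of all genes tested 15.2% passed the same test, 6.74% with a higher and 8.50% with a lower response in HMRKO, and 10.1% did so at a log2 difference over 1. When each of the 12 livers was left out in turn, this difference was 0.90 to 1.16 and its adjusted p 0.0142 to 0.0364. Without MI the genotypes overlapped, and Tbl1xr1 in HMRKO + sham against LC + sham had a log2 difference of -0.12 (SE 0.16, adjusted p = 0.973, edgeR).

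Tbl1x, on the X chromosome in mammals, encodes TBL1X. HMRKO + MI livers had 12.8, 12.6 and 12.3 CPM and HMRKO + sham livers 24.2, 16.2 and 17.7 CPM. LC + MI livers had 14.6, 13.3 and 12.0 CPM and LC + sham livers 20.5, 21.2 and 20.7 CPM. All 6 MI livers were below all 6 sham livers. Tbl1x fell by 0.62 on the log2 scale with MI in HMRKO livers (SE 0.15, adjusted p = 0.00514, edgeR) and by 0.65 in LC livers (SE 0.15, adjusted p = 0.0287, edgeR). The LC call did not survive the loss of some livers: adjusted p was 0.0977 without LC + MI replicate 2, 0.118 without LC + MI replicate 3, and, for LC + sham, 0.084 without replicate 2 and 0.0747 without replicate 3. The 2 effects had an interaction of 0.02 (SE 0.21, adjusted p = 0.945, edgeR), and HMRKO + MI against LC + MI gave -0.08 (SE 0.15, adjusted p = 0.722).

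**Figure D2:**
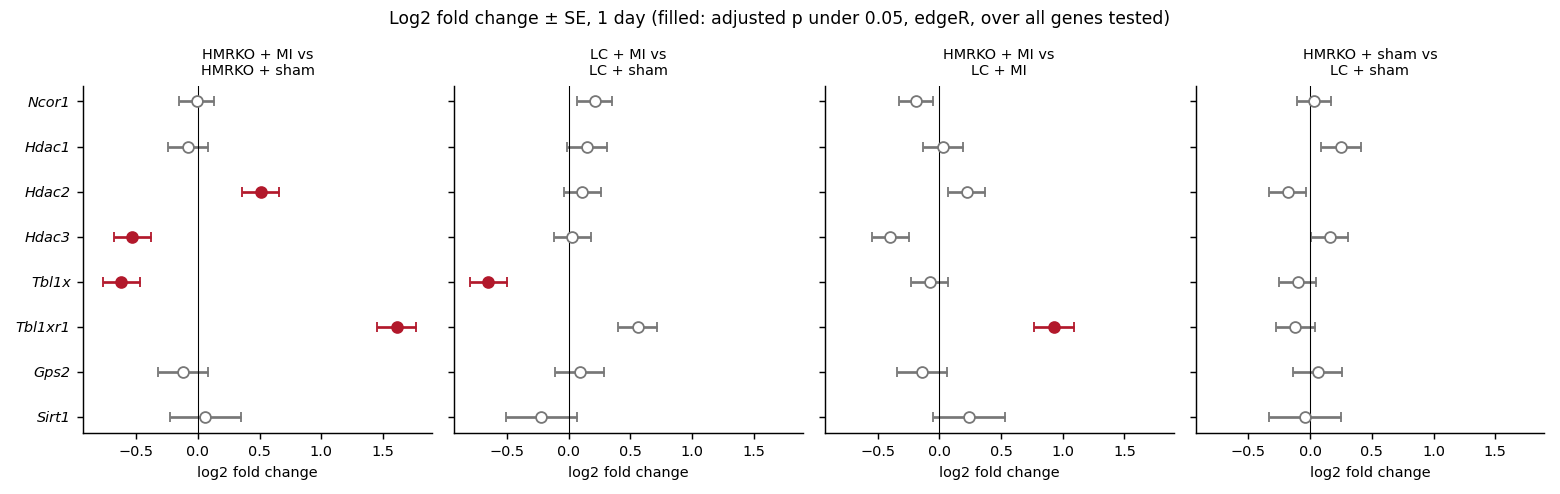
Log2 fold change ± SE of the 8 genes in the 4 comparisons of groups at 1 day, with filled points for genes at an adjusted p under 0.05 in edgeR over all genes tested. Filled points are Tbl1xr1, Hdac2, Hdac3 and Tbl1x in HMRKO + MI against HMRKO + sham, Tbl1x in LC + MI against LC + sham, and Tbl1xr1 in HMRKO + MI against LC + MI, with none in the sham comparison.

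Because the 2 TBL1 genes went opposite ways, their ratio within each liver, which does not depend on library scaling, was also computed. It was chosen after the values were seen and is given without a test. Tbl1xr1 over Tbl1x (CPM) was 5.45, 3.86 and 4.49 in HMRKO + MI livers, against 0.693, 1.25 and 1.14 in HMRKO + sham livers. It was 2.1, 2.54 and 2.25 in LC + MI livers, against 0.984, 1.12 and 0.886 in LC + sham livers. The sham livers of both genotypes lay around 1, the LC + MI livers above all of them, and the HMRKO + MI livers above all LC + MI livers. Since CPM is not corrected for length, the ratio compares livers and does not say which transcript was the more abundant.

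**Figure D3:**
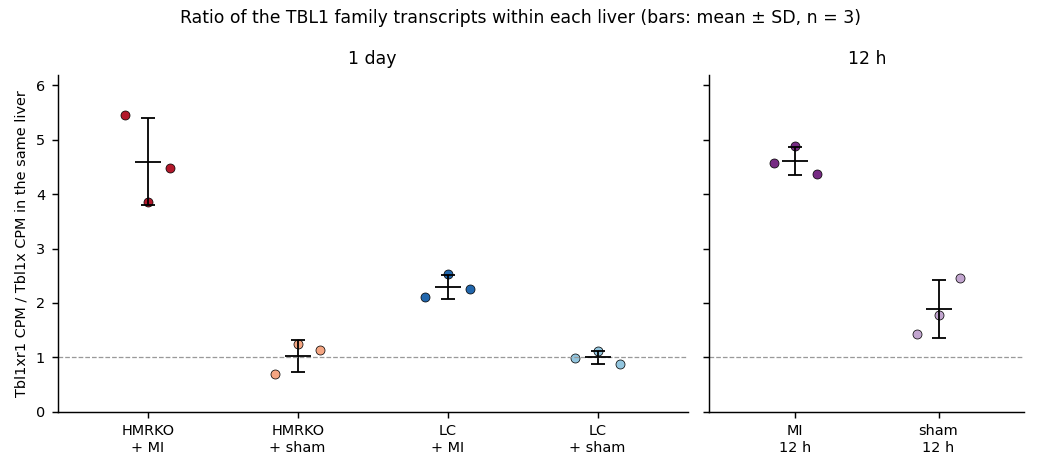
Ratio of Tbl1xr1 CPM to Tbl1x CPM within each liver, with the 4 groups at 1 day on the left and the 2 groups at 12 h on the right, 1 point per liver, bars for the mean ± SD of 3 livers and a dashed line at a ratio of 1. MI livers stand above the sham livers in each genotype and at both times (3.86 to 5.45 in HMRKO + MI, 2.1 to 2.54 in LC + MI, 4.38 to 4.88 in MI at 12 h).

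Hdac3, the catalytic subunit, was lower in HMRKO livers after MI. It was at 37.4, 32.4 and 36.1 CPM in HMRKO + MI livers, against 45.9, 56.7 and 50.3 CPM in HMRKO + sham livers. LC + MI livers had 54.9, 42.3 and 42.2 CPM and LC + sham livers 51.1, 40.0 and 45.4 CPM. All 3 HMRKO + MI livers were below every other liver. Hdac3 fell by 0.53 on the log2 scale in HMRKO + MI against HMRKO + sham (SE 0.15, adjusted p = 0.0111, edgeR), with an adjusted p of 0.0504 without HMRKO + MI replicate 2. Against LC + MI the log2 fold change was -0.40 (SE 0.15, adjusted p = 0.0558, edgeR, and 0.0422 in DESeq2), and in LC + MI against LC + sham it was 0.03 (SE 0.15, adjusted p = 0.936, edgeR). The interaction of -0.56 (SE 0.21) had an adjusted p of 0.0813 in edgeR, so a difference in response between the genotypes was not established for Hdac3.

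Ncor1, the scaffold, was at 37.9, 35.9 and 42.7 CPM in HMRKO + MI livers, against 35.2, 45.4 and 36.9 CPM in HMRKO + sham livers. LC + MI livers had 51.5, 39.7 and 41.3 CPM and LC + sham livers 41.0, 37.8 and 36 CPM. The groups overlapped in every comparison. Its largest log2 fold change was 0.21 (SE 0.14, adjusted p = 0.437, edgeR) in LC + MI against LC + sham, followed by -0.19 (SE 0.14, adjusted p = 0.344) in HMRKO + MI against LC + MI. The highest Ncor1 level was in the LC + MI liver with 18.94% mitochondrial counts, and the next highest in the HMRKO + sham liver with 15.61%. The same 2 livers had the 2 highest levels of Hdac1 (20.3 and 23.3 CPM) and of Hdac3 (54.9 and 56.7 CPM). The part of the mitochondrial share in these levels was not tested.

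Gps2, whose protein binds TBL1 and NCoR1 and restrains inflammatory signalling, spanned 17.2 to 25.7 CPM in HMRKO + MI livers, 18.9 to 26.5 in HMRKO + sham, 21.8 to 24.9 in LC + MI and 16.7 to 26.8 in LC + sham. Its log2 fold changes lay between -0.14 and 0.09, all with an SE of 0.20. Sirt1 was the least precise of the 8, with 8.87 to 9.54 CPM in HMRKO + MI livers, 5.86 to 11.7 in HMRKO + sham, 6.06 to 9.20 in LC + MI and 5.75 to 13.2 in LC + sham. The sham livers of each genotype spanned the range of the MI livers of that genotype. No log2 fold change of Sirt1 exceeded its SE of 0.29.

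Hdac2 and Hdac1 are the other class I deacetylases of the set. Hdac2 was at 24.6, 19.1 and 20.6 CPM in HMRKO + MI livers, against 15.2, 13.2 and 16.5 CPM in HMRKO + sham livers. LC + MI livers had 15.7, 20.4 and 19 CPM and LC + sham livers 16.8, 15.8 and 18.4 CPM. The HMRKO groups did not overlap, whereas the LC groups did. It rose by 0.51 on the log2 scale in HMRKO + MI against HMRKO + sham (SE 0.15, adjusted p = 0.0132, edgeR). That call was lost without HMRKO + sham replicate 2 or without HMRKO + MI replicate 1 (adjusted p = 0.0568 in both cases). In LC livers the log2 fold change was 0.11 (SE 0.15, adjusted p = 0.703, edgeR), and the interaction was 0.40 (SE 0.21, adjusted p = 0.196). Hdac1 spanned 15.4 to 19.7 CPM in HMRKO + MI livers, 15.9 to 23.3 in HMRKO + sham, 16.2 to 20.3 in LC + MI and 14.9 to 17.4 in LC + sham, with overlap in every comparison. Of the stretches of 50 bases in annotated Hdac1 transcripts, 35.3% occur in other genes, mostly in Gm10093, so its counts depend on how such reads were assigned. For the other 7 genes this share was at most 2.75% (Gps2).

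No difference between the sham groups was detected in these genes. In HMRKO + sham against LC + sham, 0 of 8 were called by edgeR, where 0.0350% of all genes tested were (0.0210% higher and 0.0140% lower, and 0.0280% past a log2 fold change of 1), and DESeq2 also called 0 of 8. None of the 8 had an unadjusted p under 0.05, where 5.87% of all genes did. Log2 differences lay between -0.18 (Hdac2, SE 0.15) and 0.25 (Hdac1, SE 0.16), and the groups overlapped for all 8 genes, where 11.1% of all genes did not overlap.

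Across the 12 livers at 1 day, log2 CPM of Tbl1xr1 went with that of Hdac2 (Pearson's r = 0.78) and against those of Tbl1x (-0.80) and Hdac3 (-0.71). Hdac2 and Hdac3 also ran against each other (-0.72), and Ncor1 went most with Hdac1 (0.61). These values describe 12 livers that share their groups and scaling, and carry no test. The genes most like Hdac3 over the same livers were Chchd10 (r = 0.975), Wdr4 (0.968), Pcyt2 (0.964), Prickle3 (0.955) and Abhd11 (0.954). Those most like Ncor1 were Tep1 and Xndc1 (0.922 each), 4932438A13Rik (0.896), the mitochondrially encoded mt-Nd4 (0.890) and Rad54b (0.879).

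At 1 day, levels of Tbl1xr1 were highest in HMRKO + MI livers, where blood cell markers also differed. Neutrophil markers summed to 30.4 to 33.6 CPM in HMRKO + MI livers, 9.30 to 14.2 in HMRKO + sham, 10.9 to 20.6 in LC + MI and 4.89 to 13.7 in LC + sham. Of the 10 neutrophil markers, 6 passed the filter. Of them 5 rose in HMRKO + MI against HMRKO + sham, where 22.0% of all genes rose. In HMRKO + MI against LC + MI 4 were higher, where 14.6% of all genes were. Mpo, a marker of immature neutrophils, was at 0 in all 3 HMRKO + MI libraries. Lymphocyte markers summed to 0.876 to 1.96 CPM in HMRKO + MI livers, against 3.57 to 5.27 in HMRKO + sham livers, and to 1.81 to 2.65 CPM in LC + MI livers, against 3.59 to 8.11 in LC + sham livers. These sums, small throughout, were lower after MI in both genotypes. Of the 5 lymphocyte markers that passed the filter, 4 were called lower with MI in HMRKO livers, where 21.7% of all genes were. In LC livers 0 were, where 2.33% of all genes were. Marker differences were not confined to these cells or to HMRKO + MI livers. Kupffer cell and macrophage markers summed to 95.9 to 179 CPM in HMRKO + MI livers and 142 to 207 in HMRKO + sham. They summed to 147 to 159 in LC + MI and 220 to 287 in LC + sham. Erythroid markers summed to 150 to 207, 191 to 346, 137 to 175 and 230 to 293 CPM in the same order of groups. At 12 h, Tbl1xr1 was higher in MI livers in CPM, whereas neutrophil markers summed to 45.8 to 91.5 CPM in MI livers and 136 to 184 in sham livers. Of the 8 neutrophil markers tested there, 5 were called higher after MI and 2 lower, where 34.3% and 32.0% of all genes were. Depth differed widely between those libraries, as given below. The part of such cells in the level of Tbl1xr1 was not tested.

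Fgf21, the liver hormone that the study followed downstream of MR, was at 22.5, 13.6 and 9.85 CPM in HMRKO + MI livers, against 0.670, 0.289 and 0.527 CPM in HMRKO + sham livers. LC + MI livers had 1.8, 3.42 and 1.63 CPM and LC + sham livers 0.754, 0.259 and 0.262 CPM. It rose by 4.92 with MI in HMRKO livers (log2, SE 0.48, adjusted p = 2.25e-05, edgeR) and by 2.40 in LC livers (SE 0.48, adjusted p = 0.0185). The LC call was lost without LC + MI replicate 2 or LC + sham replicate 2 or 3 (adjusted p up to 0.0726, edgeR), and the log2 fold change was 3.11 without LC + sham replicate 1. Its groups stand in the same order as those of Tbl1xr1 for MI, with HMRKO + MI above LC + MI and both above sham.

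The wider corepressor and coactivator machinery was read from lists of related genes. Of 7 other partners of NCoR, 1 rose and 1 fell with MI in HMRKO livers, where 22.0% of all genes rose and 21.7% fell, and 1 rose and 1 fell in LC livers, where 2.68% rose and 2.33% fell. Kdm4a, a histone demethylase found with NCoR, rose with MI in HMRKO livers (log2 fold change 1.42, SE 0.15, adjusted p = 4.48e-05, edgeR) and in LC livers (0.94, SE 0.15, adjusted p = 0.00643). Its level was 75.7 to 84.7 CPM in HMRKO + MI livers, 28.1 to 34.5 in HMRKO + sham, 46.5 to 63.7 in LC + MI and 25 to 32.7 in LC + sham. C1d, a corepressor-binding nuclear protein, was higher in HMRKO + MI than in LC + MI (0.80, SE 0.20, adjusted p = 0.0111). Its fall in LC + MI against LC + sham (-0.75, SE 0.20, adjusted p = 0.0485, edgeR) was lost whichever of the 6 livers was left out, with an adjusted p of 0.062 to 0.169. Bcl6, a repressor that recruits NCoR, fell in HMRKO + MI against HMRKO + sham (-2.51, SE 0.70, adjusted p = 0.0115).

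Among the other sirtuins and regulators of SIRT1, 6 of 10 were lower in HMRKO + MI than in LC + MI and none higher, where 16.2% of all genes were lower (median log2 fold change -0.58, against -0.01 over all genes). Sirt4 (-0.96, SE 0.18, adjusted p = 0.00265, edgeR) and Sirt5 (-0.79, SE 0.18, adjusted p = 0.00746) are mitochondrial, and Sirt7 (-1, SE 0.21, adjusted p = 0.00515) is nucleolar. The remaining calls were Sirt2, Nmnat1, which makes NAD in the nucleus, and Rps19bp1, an activator of SIRT1. Of these calls, that of Nmnat1 was lost without LC + MI replicate 1 or HMRKO + MI replicate 1 (adjusted p up to 0.0639, edgeR). The same 6 were called lower in the interaction, where 8.50% of all genes were, but of these 6 only the call of Sirt4 held with each of the 12 livers left out in turn (adjusted p up to 0.0422). The others were each lost without 3 or more of the 12 livers and reached an adjusted p of 0.0544 (Sirt5), 0.0798 (Sirt7), 0.081 (Rps19bp1), 0.083 (Sirt2) and 0.11 (Nmnat1), each without LC + sham replicate 2. The calls of Rps19bp1 and Nmnat1 in the interaction were also lost without the count filter (adjusted p = 0.0877 and 0.0663) and with the replicate block. In LC + MI against LC + sham, the 6 had log2 fold changes between -0.14 (Nmnat1) and 0.24 (Sirt4) and none passed edgeR's test, and the median of the 10 was -0.01. Against HMRKO + sham, 7 of the 10 fell in HMRKO + MI, where 21.7% of all genes fell.

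Of the 8 other histone deacetylases, 3 were lower in HMRKO + MI than in LC + MI and none higher, where 16.2% of all genes were lower (median -0.71, against -0.01 over all genes). Hdac11, the sole class IV enzyme, was at 4.70 to 8.84 CPM in HMRKO + MI livers, 41.2 to 59.4 in HMRKO + sham, 21.1 to 34.0 in LC + MI and 38.2 to 51.0 in LC + sham. Its log2 fold change between the MI groups was -1.8 (SE 0.25, adjusted p = 0.000911, edgeR), and the interaction was -1.98 (SE 0.34, adjusted p = 0.00782). Hdac5 (-1.13, SE 0.30, adjusted p = 0.0152) and Hdac6 (-0.79, SE 0.23, adjusted p = 0.0202) were the others, with Hdac5 at 22.1 to 29.7 CPM in HMRKO + MI livers and 34.9 to 94.9 CPM in LC + MI livers. The call of Hdac5 was lost without LC + MI replicate 1 (log2 fold change -0.56) or HMRKO + MI replicate 1 (adjusted p up to 0.0562, edgeR). That of Hdac6 was lost without LC + MI replicate 1 (log2 fold change -0.55) or HMRKO + MI replicate 1 or 3 (adjusted p up to 0.0948).

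Of 22 genes tested of the SIN3, NuRD and CoREST complexes, which hold HDAC1 and HDAC2, 4 were higher in HMRKO + MI than in LC + MI (Mbd2, Mta3 and Rbbp7 among them) and 3 lower (Mbd3, Suds3 and Hmg20b), where 14.6% of all genes were higher and 16.2% lower. These shares are near those of all genes, and of these 6 named genes 4 lost their call with a liver left out. Without LC + MI replicate 1 the adjusted p was 0.105 for Rbbp7, 0.0694 for Suds3 and 0.0539 for Hmg20b (edgeR). The call of Suds3 was also lost without HMRKO + MI replicate 1, that of Rbbp7 without HMRKO + MI replicate 2 or 3, and that of Mta3 only without HMRKO + MI replicate 1 (0.0547). In LC + MI against LC + sham 0 of the 22 were called by edgeR, with 2 at an unadjusted p under 0.05. Among 8 acetyltransferase coactivators, which oppose these deacetylases, Ncoa2 (1.09, SE 0.15, adjusted p = 0.000911, edgeR) and Ncoa1 were higher in HMRKO + MI than in LC + MI and Kat2a lower (-0.82, SE 0.19, adjusted p = 0.00695). The call of Ncoa1 was lost without any 1 of the 6 livers other than HMRKO + MI replicate 2 (adjusted p up to 0.129). Of 10 receptors that recruit NCoR, Ppara, Rxra and Thrb were higher in HMRKO + MI than in LC + MI, and Rara, Nr1h3 and the deleted Nr3c2 lower. For the coactivators and the receptors alike, the shares over all genes in this comparison were 14.6% higher and 16.2% lower. With a liver left out, the adjusted p of Rxra reached 0.0845 (lost without replicate 2 or 3 of either MI group), that of Thrb 0.138 (lost without any 1 of the 6 livers but HMRKO + MI replicate 2) and that of Nr1h3 0.0565 (lost without LC + MI replicate 1 or HMRKO + MI replicate 2). The calls of Rxra and Thrb were also lost without the count filter (adjusted p = 0.0913 and 0.0786). Among these receptors Nr1d1 and Nr1d2, which encode the REV-ERB proteins, fell in LC + MI against LC + sham (-2.35, SE 0.37, adjusted p = 0.00603 and -1.32, SE 0.16, adjusted p = 0.00124) and in HMRKO + MI against HMRKO + sham (-1.89, SE 0.37, adjusted p = 0.00146 and -1.33, SE 0.16, adjusted p = 7.58e-05). Without LC + MI replicate 1 the LC difference of Nr1d1 was -3.07.

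**Figure D4:**
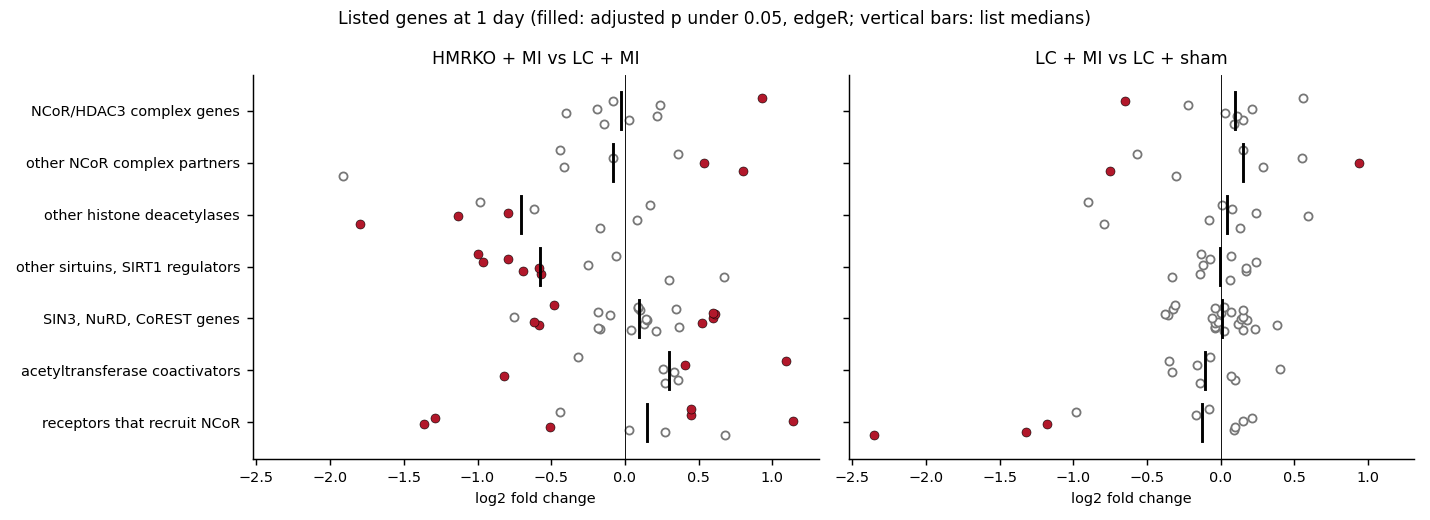
Log2 fold change of each listed gene at 1 day in HMRKO + MI against LC + MI (left) and LC + MI against LC + sham (right), with 1 point per gene, filled at an adjusted p under 0.05 in edgeR, and a vertical bar at the median of each list. The NCoR/HDAC3 genes centre on -0.03 on the left, where the other sirtuins (-0.58) and the other histone deacetylases (-0.71) lie below 0.

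At 12 h the sham libraries stood apart before any gene was compared. Total estimated counts were 16745688 to 19190438 in MI livers and 1361564 to 2255837 in sham livers, a ratio of the means of 9.595. A single gene, Gm20594, took 0.0167% to 0.0659% of counts in MI livers and 1.788% to 3.66% in sham livers, and it had no count at 1 day. Hepatocyte markers summed to 79200 to 109000 CPM in MI livers and to 32700 to 36600 in sham livers. Depth, library and operation cannot be told apart here, and the sham libraries decide each value that follows.

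At 12 h, 4 of 8 genes were higher after MI (Hdac2, Hdac3, Tbl1xr1 and Sirt1), where 34.3% of all genes tested were, and 3 of 8 lower (Ncor1, Gps2 and Hdac1), where 32.0% were. In all, 66.2% of genes were called by edgeR and 52.2% were called past a log2 fold change of 1, as were 4 of the 8. The groups did not overlap for 7 of the 8, where 71.8% of all genes did not. The median log2 fold change of the 8 was 0.04, against 0.11 over all genes. On the deposited TPM scale (an abundance per transcript, corrected for length) the median of all genes was -0.39, with limma on log2(TPM + 1). The log2 fold changes in TPM given below are not corrected for that shift and have to be read relative to it. The test on that scale was against 0 and not against the shift. By it none of the 8 was called higher, and the falls were those of Ncor1, Gps2, Hdac1 and Tbl1x.

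Ncor1 showed the largest difference of the 8. MI livers had 119, 69.8 and 83.8 CPM and sham livers 988, 1026 and 594 CPM. No MI liver came near the sham livers. The log2 fold change was -3.26 (SE 0.31, adjusted p = 1.29e-05, edgeR), with -3.42 (SE 0.32, adjusted p = 1.7e-06) after thinning the MI libraries to sham depth and -3.82 (SE 0.28, adjusted p = 1.76e-05, limma) in TPM. The MI livers were nearer to the 35.2 to 51.5 CPM of the 1 day livers than the sham livers were, though the tables were made separately. Gps2 was at 78.8, 47.6 and 48.1 CPM in MI livers and 213, 167 and 175 CPM in sham livers (log2 fold change -1.67, SE 0.25, adjusted p = 0.000198, edgeR), where every 1 day liver had 16.7 to 26.8 CPM. The estimates of Ncor1, Gps2 and Tbl1xr1 are not whole numbers in any of the 6 libraries, as is the case in at least 1 library for 39.8% of genes, which is how a program that divides reads among genes or transcripts writes them.

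Tbl1xr1 was at 49.1, 75.8 and 64.4 CPM in MI livers and 41.8, 33.6 and 31.6 CPM in sham livers (log2 fold change 0.83, SE 0.22, adjusted p = 0.00644, edgeR). Thinning kept the call (0.55, SE 0.23, adjusted p = 0.0471). In TPM the values were 6.70, 10.2 and 9.17 in MI livers and 8.35, 7.11 and 6.63 in sham livers, which overlap (0.20, SE 0.21, adjusted p = 0.426, limma). Tbl1x was at 10.7, 15.5 and 14.7 CPM in MI livers and 29.5, 19 and 12.8 CPM in sham livers (-0.55, SE 0.30, adjusted p = 0.129, edgeR). It was called lower after thinning (-0.92, SE 0.35, adjusted p = 0.0331) and in TPM (-1.21, SE 0.30, adjusted p = 0.00735, limma). The ratio of Tbl1xr1 to Tbl1x, free of library scaling, was 4.57, 4.88 and 4.38 in MI livers and 1.42, 1.77 and 2.46 in sham livers in CPM, and 3.12, 3.38 and 3.02 in MI livers and 0.812, 0.765 and 1.5 in sham livers in TPM. The MI livers were above all sham livers on both scales.

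Hdac3 was at 34.4, 35.1 and 35.4 CPM in MI livers and 20, 21.4 and 29.5 CPM in sham livers (log2 fold change 0.55, SE 0.21, adjusted p = 0.0345, edgeR). This call did not hold after thinning (0.35, SE 0.25, adjusted p = 0.235), and in TPM the difference was -0.04 (SE 0.20, adjusted p = 0.891, limma). Hdac2 was at 18.8, 18.7 and 26.1 CPM in MI livers and 13.0, 6.72 and 10.4 CPM in sham livers (1.10, SE 0.28, adjusted p = 0.00521, edgeR), with 0.43 (SE 0.25, adjusted p = 0.164, limma) in TPM. Sirt1 was at 10.2, 10.1 and 10.1 CPM in MI livers and 3.54, 2.37 and 7.30 CPM in sham livers (1.15, SE 0.36, adjusted p = 0.0165, edgeR). The sham values of Sirt1 rest on 6, 6 and 21 counts, and the call was lost without sham replicate 1 (adjusted p = 0.0514) or 2 (0.0601). Hdac1 was at 20.1, 22.6 and 24.4 CPM in MI livers and 29.5, 33.2 and 30.9 CPM in sham livers (-0.48, SE 0.19, adjusted p = 0.0429, edgeR), with an adjusted p of 0.0556 after thinning. In TPM, Hdac1 was at 11.4, 12.4 and 14.2 in MI livers and 25.1, 29.5 and 27.2 in sham livers, without overlap.

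**Figure D5:**
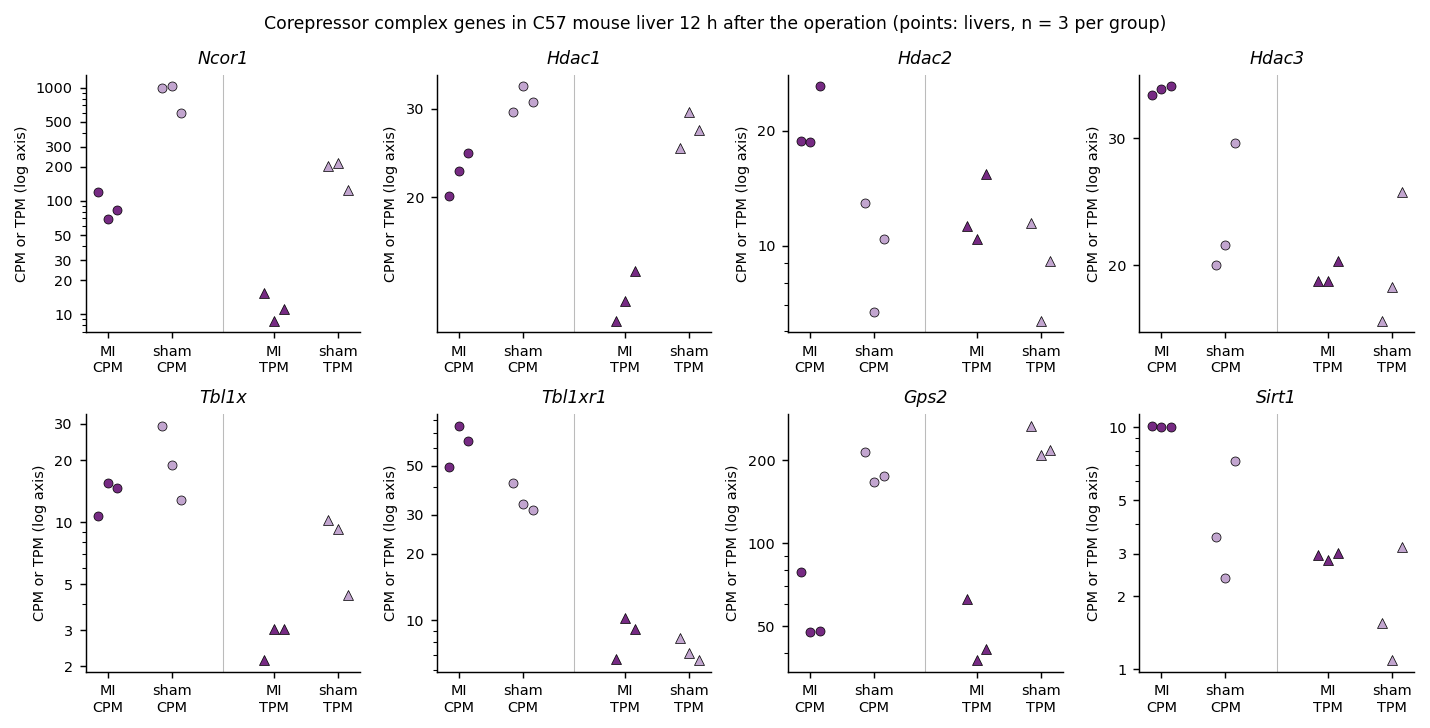
The 8 genes in each C57 liver at 12 h, as TMM-scaled CPM (circles) and deposited TPM (triangles) on log axes, with MI left of sham and 3 livers per group. Ncor1, Gps2 and Hdac1 are lower in MI livers on both scales, whereas Tbl1xr1, Hdac2, Hdac3 and Sirt1 separate the groups in CPM and overlap in TPM.

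Corrected for length, the order of the 8 transcripts in MI livers at 12 h was Gps2 at 47.3 ± 13.4 TPM, Hdac3 at 19.4 ± 0.707, Hdac1 at 12.7 ± 1.45, Hdac2 at 12.4 ± 2.67, Ncor1 at 11.8 ± 3.42, Tbl1xr1 at 8.70 ± 1.81, Sirt1 at 2.94 ± 0.104 and Tbl1x at 2.74 ± 0.511 TPM (SD, n = 3 each). Hdac1, Hdac2 and Ncor1 lie within their spread of each other, as do Sirt1 and Tbl1x. In sham livers Gps2 (231 ± 31.1 TPM) and Ncor1 (182 ± 49.7) stood above the rest, followed by Hdac1 (27.3 ± 2.22), Hdac3 (20.2 ± 4.47), Hdac2 (9 ± 2.56), Tbl1x (8 ± 3.13), Tbl1xr1 (7.36 ± 0.888) and Sirt1 (1.95 ± 1.11).

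Other genes of the machinery differed widely at 12 h as well. Of the 8 other histone deacetylases 7 were lower in MI livers (among them Hdac4, Hdac5, Hdac6, Hdac7, Hdac10 and Hdac11), where 32.0% of all genes were, and none higher. The call of Hdac11 was lost after thinning. Kdm4a was at 70.5 to 76.2 CPM in MI livers and 3.95 to 9.03 CPM in sham livers (log2 fold change 3.44, SE 0.27, adjusted p = 5.34e-06, edgeR), the same direction as at 1 day. Sirt5 was at 6.90 to 10.4 CPM in MI livers and 84.4 to 131 CPM in sham livers (-3.76, SE 0.26, adjusted p = 4.16e-06), where the 1 day livers of all 4 groups had 5.09 to 12.3 CPM. Ncor1, Gps2 and Sirt5 are named here for their high sham values, and not all members were like them. Tbl1x had a mean of 20.4 CPM in sham livers at 12 h, with a wide range of 12.8 to 29.5 CPM. In sham livers at 1 day its mean was 20.8 (LC) and 19.4 (HMRKO). Its mean in MI livers was 13.7 CPM at 12 h, against 13.3 (LC) and 12.6 (HMRKO) at 1 day. For the remaining members, means of sham livers at 12 h were set against those of LC + sham livers at 1 day. They were lower for Hdac3 (23.6 against 45.5 CPM), Hdac2 (10 against 17) and Sirt1 (4.4 against 9.01). They were higher for Hdac1 (31.2 against 16) and Tbl1xr1 (35.7 against 20.7). The tables were made separately, and the cause of such differences was not tested. The direction of Nr1d2 was opposite to that at 1 day (0.89, SE 0.20, adjusted p = 0.00287), a call that was lost on the TPM scale, and Nr1d1 was lower at both times (-1.86, SE 0.38, adjusted p = 0.00149). Fgf21 was at 30.5, 14.2 and 24.2 CPM in MI livers and 0, 0.395 and 3.13 CPM in sham livers, and Nr3c2 at 0.491, 1.17 and 1.57 CPM in MI livers and 1.77, 1.19 and 2.43 CPM in sham livers (-0.74, SE 0.58, adjusted p = 0.277).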

How the data were processed

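Liver RNA of 18 mice was analysed as 2 experiments, 12 livers at 1 day and 6 at 12 h, grouped by the labels and the design text of the series. The 1 day table deposited by the authors holds unnormalized counts of reads for each gene. The 12 h table that the authors deposited holds TPM, FPKM and estimated counts for each gene. The FPKM values, scaled by the authors to length and library size, were not tested. Of tools, the submitters' processing notes list HISAT2 2.1.0, TopHat2, Bowtie2 2.2.3 and DESeq2, with mm9 as build. Neither the counting program nor strand use is given in the sources used here. Libraries were prepared with TruSeq reagents.

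Counts (estimated counts after rounding) were tested in R 4.3.3 with edgeR 4.0.16: filterByExpr by group (minimum count 10, minimum total 15), TMM scaling, and a quasi-likelihood fit of group means to the 12 or the 6 livers, with Benjamini-Hochberg adjustment across the genes tested. Common biological variation (BCV) came to 0.209 for 1 day and 0.24 for 12 h. The test was checked on simulated data in which few genes differed and the spread was the same for all genes. The 12 h data are unlike that setting, so the check does not cover their calls. Alternatives were DESeq2 1.42.0, RLE size factors, other count filters, only the compared groups, a log2 fold change over 1 (as in the study's methods), mitochondrial genes left out, the replicate block, each liver left out, and limma 3.58.1 on log2(TPM + 1) and log2(TPM + 0.1) for genes at a mean of at least 1 TPM. Thinning and leaving out Gm20594 at 12 h were added after the data were seen. No replicate pair held the same values, and 0 columns were left unmapped. Named genes are the 8 members, Nr3c2, Fgf21, up to 6 called genes with the smallest p of each list, and the 5 genes most correlated with Ncor1 and with Hdac3; Gm20594 was added after its values were seen. A gene related to the members is not reported here. The members and lists were chosen with earlier results of these data known. Promoters came from RefSeq (GRCm38.p6), a build other than that of the files, and transcript stretches of 50 bases from GENCODE M21.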

Additional observations from a re-analysis of the deposited data

Results flagged for a closer look

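The effect of MI on Tbl1xr1 differed between the genotypes by the test of the difference itself: it was larger in HMRKO than in LC livers by 1.05 on the log2 scale (SE 0.23, adjusted p = 0.0137, edgeR interaction term, 3 livers per group). Over the alternatives other than leaving out a liver, this difference was 1.04 to 1.05, with an adjusted p of 0.000909 to 0.0222.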

How the results depend on the processing

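Each of the 8 genes was refitted under the alternatives in all 6 comparisons. Of 680 refitted values, 640 kept their direction and their side of the threshold, 32 lost a call, 6 gained one and 2 turned round. Both that turned were Hdac3 at 12 h, at -0.04 with limma on log2(TPM + 1) and on log2(TPM + 0.1). Direction is counted from 0 there, and -0.04 lies above the median of all genes under either (-0.39 and -0.44). With a log2 fold change over 1 required, the members counted as higher were 2 at 12 h, 1 in HMRKO + MI against HMRKO + sham and 0 in HMRKO + MI against LC + MI, and those counted as lower were 0 in HMRKO + MI against HMRKO + sham and 0 in LC + MI against LC + sham. With DESeq2, 1 member (Tbl1xr1) was higher in LC + MI against LC + sham and 1 (Hdac3) lower in HMRKO + MI against LC + MI. With limma on either TPM scale, 0 members were higher at 12 h. With a liver left out in turn, members higher numbered 2 to 4 at 12 h (2 without sham replicate 1 or 2), with 2 to 3 lower, and 1 to 2 in HMRKO + MI against HMRKO + sham, and members lower 1 to 2 in HMRKO + MI against HMRKO + sham and 0 to 1 in LC + MI against LC + sham. The calls of Tbl1xr1 in HMRKO + MI against HMRKO + sham, HMRKO + MI against LC + MI and the interaction held with every liver left out and under every alternative fit, at any fold. Beyond the fold threshold, the cause of these changes was not tested.

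Replicate numbers did not clearly pair the livers: correlations of same-numbered deviations lay between -0.14 and 0.18. In HMRKO + MI against LC + MI, replicates 1, 2 and 3 each correlated best with their own number, though weakly (0.02, 0.04 and 0.08). So did replicates 1 and 2 in LC + MI against LC + sham (0.16 and 0.18), and none in the other comparisons. With the replicate block, the calls of Hdac1 (adjusted p = 0.0787, edgeR) and Hdac3 (0.0502) at 12 h were lost and no other member's call changed. Counts over all genes moved by more than 1.5 times in LC + MI against LC + sham (714 genes, against 1307 with DESeq2, 1151 without a count filter, 312 with only these groups, 355 past the fold threshold and 176 to 1117 with a liver left out), in HMRKO + sham against LC + sham (5, against 51 with DESeq2, 84 without a count filter, 1 with only these groups, 3 with the replicate block and 0 to 2 with a liver left out), in HMRKO + MI against LC + MI (4400, against 1762 past the fold threshold and 2564 without LC + MI replicate 1), in HMRKO + MI against HMRKO + sham (6237, against 2914 past the fold threshold) and in the interaction (2175, against 1441 past the fold threshold and down to 983 with a liver left out). Of the genes called at 12 h, 51.7% were higher by edgeR and 30.5% with limma on log2(TPM + 1). Leaving out mitochondrially encoded genes could not be run at 12 h, where the table lists none. The low sham depth at 12 h limits the members with few sham counts, such as Sirt1.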
